A study of Mus musculus with 15 samples.

Results

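The CXC chemokines described here are 9 genes of 19297 measured: Cxcl1, Cxcl2, Cxcl3, Cxcl5, Ppbp (also called Cxcl7), Pf4 (Cxcl4), Cxcl10, Cxcl12 and Cxcl16. Each was taken from the probe set whose platform annotation gives that symbol alone. A gene with several probe sets would have been read from the one highest on average, but all 9 had 1. The family was chosen by earlier results of these same arrays, in which Cxcl5 and Ppbp read below the vector with wild-type Twist1 and Cxcl5 and Cxcl2 with F191G. Those differences are therefore given as a description, their p-values are no independent evidence, and nothing below is supported with them. Every other comparison with VEC, WT or F191G shares arrays with that choice. The p-values of Cxcl5, Ppbp and Cxcl2 in such comparisons, DQD against WT among them, are no independent evidence either. Cxcl1 followed Cxcl2 from array to array (Pearson's r = 0.976), so the same holds for the p-values of Cxcl1.

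The arrays measured total RNA of Myc-CaP cells, a line from a prostate tumour of a mouse with a Myc transgene, grown to confluence after transfection and selection. All 5 groups are selected transfectants of this line, with 3 arrays each, named A, B and C in the labels. VEC carries the vector control, WT the unchanged Twist1 sequence, and AQA, DQD and F191G carry altered forms of it, the last changed in the C-terminal Twist box. The sources used here do not give the promoter that drives Twist1, the number of clones, or whether the letters stand for separate cultures. The p-values therefore cover the differences among replicate arrays only, and part of these may be technical. Levels are deposited log2 values, given as mean ± SD (n = 3 arrays), and a difference of 1 is a 2-fold change.

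CXC chemokines are small secreted proteins that guide leukocytes through receptors on their surface. Those with a glutamate-leucine-arginine motif ahead of the first cysteines, which in the mouse include Cxcl1, Cxcl2, Cxcl3, Cxcl5 and processed Ppbp, signal through Cxcr2 and draw neutrophils. Pf4 lacks that motif and is stored with Ppbp in platelet granules. Cxcl10 is induced by interferons and binds Cxcr3, Cxcl12 binds Cxcr4 and Ackr3, and Cxcl16 is a membrane-anchored ligand of Cxcr6. The genes Cxcl1, Cxcl2 and Cxcl10 are classical targets of NF-kB, the transcription factor of inflammatory signalling, and Twist1 is a basic helix-loop-helix factor that binds E-boxes.

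Of the 9 genes 7 lie on chromosome 5. In the RefSeq annotation of GRCm38.p6, Cxcl5, Ppbp, Pf4, Cxcl3, Cxcl15, Cxcl1 and Cxcl2 follow one another in this order with no other annotated gene between them. RefSeq promoter windows (250 bases before the annotated start and 50 after it, GRCm38.p6) were at hand for 7 members. The windows of Cxcl1, Cxcl2 and Cxcl3 are shown because they share an NF-kB motif, that of Ppbp because its level differed in pattern from Cxcl1, and that of Cxcl10 because it holds an interferon motif as well. Capitals mark matches to GGAANTTCC, the inner letters of an NF-kB motif, which read alike on both strands, and, in Cxcl10, also to the interferon-response letters GAAANNGAA, searched on both strands. The windows lie at chr5:90890995-90891294 (Cxcl1, plus strand), chr5:90903649-90903948 (Cxcl2, plus), chr5:90785851-90786150 (Cxcl3, plus), chr5:90768268-90768567 (Ppbp, plus) and chr5:92348840-92349139 (Cxcl10, minus), each printed 5′ to 3′ on the gene's strand.
Cxcl1: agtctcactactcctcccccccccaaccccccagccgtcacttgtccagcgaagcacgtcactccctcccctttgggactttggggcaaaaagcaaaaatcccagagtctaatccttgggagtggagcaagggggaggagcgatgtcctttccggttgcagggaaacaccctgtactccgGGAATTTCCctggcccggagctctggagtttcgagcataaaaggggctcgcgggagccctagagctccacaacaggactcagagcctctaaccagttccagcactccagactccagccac
Cxcl2: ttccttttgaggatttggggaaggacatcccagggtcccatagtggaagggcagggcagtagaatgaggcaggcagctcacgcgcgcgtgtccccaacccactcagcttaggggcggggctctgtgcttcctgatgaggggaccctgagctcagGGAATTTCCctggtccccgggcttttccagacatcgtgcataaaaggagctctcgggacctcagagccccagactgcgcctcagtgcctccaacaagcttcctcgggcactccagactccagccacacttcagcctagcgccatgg
Cxcl3: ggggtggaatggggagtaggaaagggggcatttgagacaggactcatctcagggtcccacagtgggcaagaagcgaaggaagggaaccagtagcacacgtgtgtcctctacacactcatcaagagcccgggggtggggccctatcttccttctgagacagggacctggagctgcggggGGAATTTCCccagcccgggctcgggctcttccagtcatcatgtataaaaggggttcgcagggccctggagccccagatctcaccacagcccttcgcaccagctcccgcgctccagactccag
Ppbp: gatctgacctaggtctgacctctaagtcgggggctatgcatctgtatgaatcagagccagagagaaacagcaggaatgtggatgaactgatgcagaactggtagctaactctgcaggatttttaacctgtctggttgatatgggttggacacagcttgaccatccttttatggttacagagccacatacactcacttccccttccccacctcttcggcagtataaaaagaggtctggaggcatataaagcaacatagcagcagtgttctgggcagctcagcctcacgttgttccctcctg
Cxcl10: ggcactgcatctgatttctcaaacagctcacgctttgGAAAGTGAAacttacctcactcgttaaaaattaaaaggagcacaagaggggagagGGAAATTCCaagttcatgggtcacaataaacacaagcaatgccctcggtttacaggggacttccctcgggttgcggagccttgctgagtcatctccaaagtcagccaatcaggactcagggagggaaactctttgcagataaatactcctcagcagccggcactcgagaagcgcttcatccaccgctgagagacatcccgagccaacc

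Cxcl1, Cxcl2 and Cxcl3 each hold GGAATTTCC, starting 70, 96 and 72 bases before the annotated start. Cxcl10 holds GGAAATTCC 158 bases and GAAAGTGAA 213 bases before its start. Ppbp, Pf4 and Cxcl12 held no match to either motif in their windows. Of 32851 RefSeq promoter windows of this length, 0.928% hold GGAANTTCC and 8.56% hold GAAANNGAA. The E-box letters CANNTG were in the windows of Cxcl1, Cxcl3, Ppbp, Pf4 and Cxcl10, and in 72.3% of all windows. In these windows no match to 1 of the 3 motifs overlapped a match to another. A match is a description of the letters and does not show binding.

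**Figure D1:**
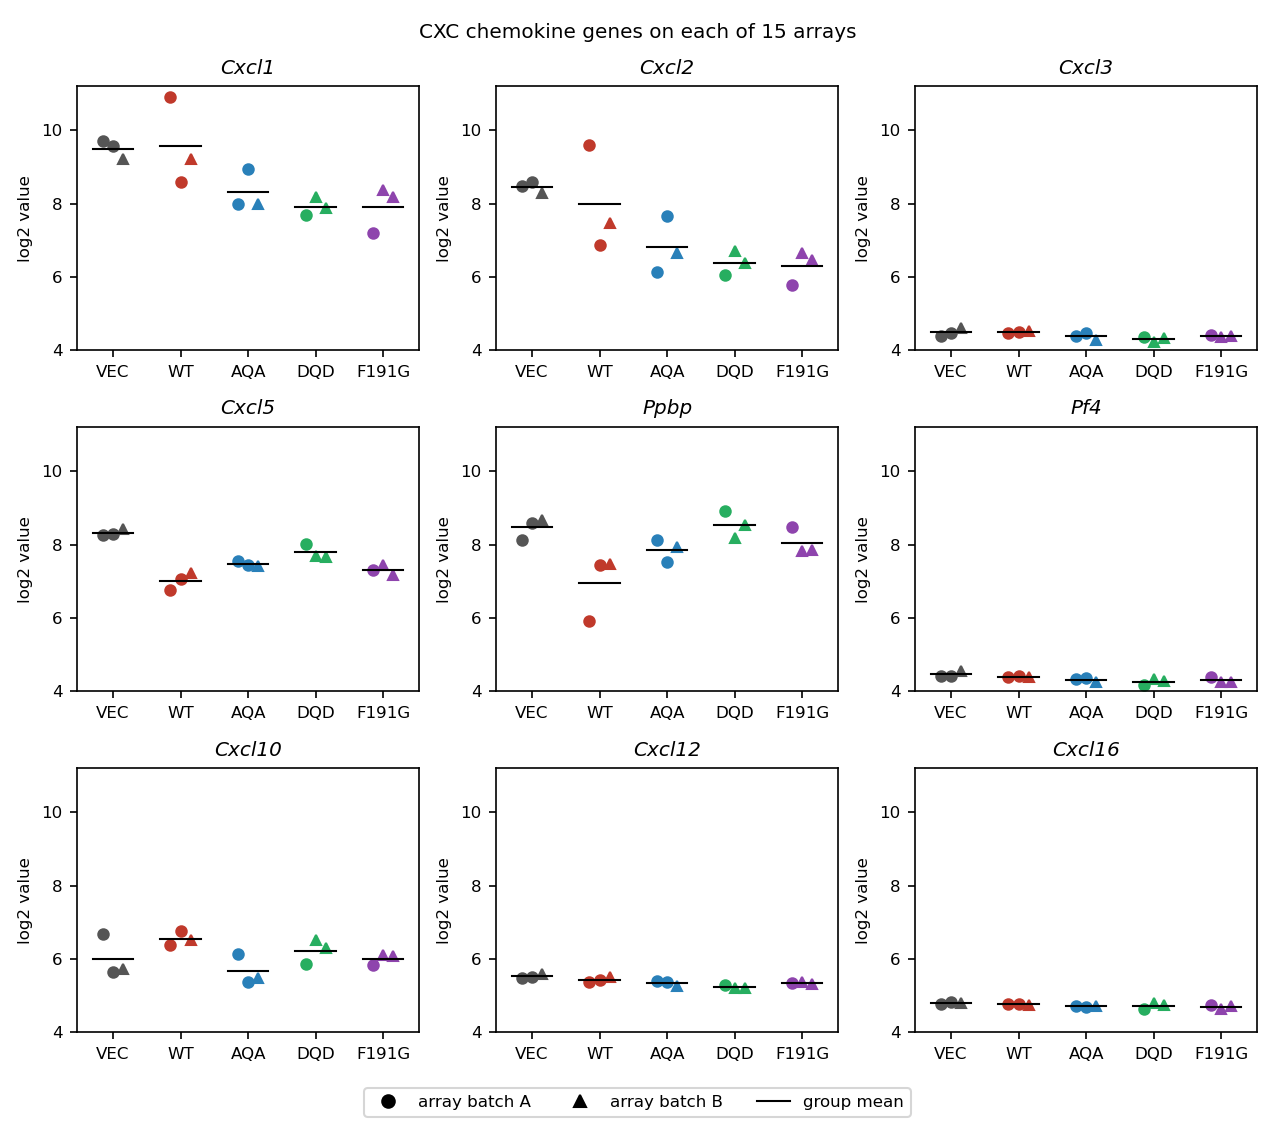
Log2 value of each of the 9 CXC chemokine genes (vertical axes, the same scale in all panels) on each array, by group (horizontal axes); circles are arrays of batch A, triangles arrays of batch B, and bars group means. Cxcl1, Cxcl2, Cxcl5, Ppbp and Cxcl10 vary by 1.39 to 3.81 over the 15 arrays, and Cxcl3, Pf4, Cxcl12 and Cxcl16 span at most 0.39.

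Among the arrays, WT replicate A stood apart, with a lowest correlation to another array of 0.969, against 0.990 among the other 14. The labels give array batches A (8 arrays) and B (7), and every group has arrays in both. In the deposited values the batch term, fitted beside group, was no larger than 5e-09 for any of the 23811 probe sets. Twist1 itself read 0.25 to 0.36 above VEC in the 4 forms (limma adjusted p = 0.129 for WT, 0.429 for F191G, 0.438 for AQA and 0.183 for DQD), and its probe set's place in the transcript was not analysed here. Per the series' design text the arrays had been adjusted for the level of Twist1. What this did to the Twist1 differences was not tested. Of the epithelial markers, Krt18, Epcam and Cdh1 averaged 5.73, 5.01 and 5.60, below the array medians of 6.31 to 6.42, while Krt8 averaged 7.97 and Myc 10.08.

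Cxcl5, the neutrophil chemokine also known as LIX in the mouse, was the member that separated every Twist1 form from the vector. It read 8.26, 8.29 and 8.42 on VEC arrays A, B and C. It read 6.76, 7.07 and 7.22 with WT, and 7.32, 7.45 and 7.16 with F191G. It read 7.56, 7.45 and 7.41 with AQA, and 8.03, 7.70 and 7.65 with DQD. All 12 arrays with a Twist1 form lay below the lowest VEC array, and the means ran in the order VEC (8.32 ± 0.09), DQD (7.79 ± 0.20), AQA (7.47 ± 0.07), F191G (7.31 ± 0.14) and WT (7.02 ± 0.23). The VEC arrays are the same in each comparison, and in single forms 13.3% to 22.1% of all genes lay below all VEC arrays. The share lying so in every form is not given here. Cxcl5 with WT and with F191G was among the differences on which the family was chosen. AQA overlapped F191G, and F191G overlapped WT, whereas DQD lay above AQA on all arrays without passing the test (difference 0.32, SE 0.127, limma adjusted p = 0.281).

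Cxcl5 fell with WT by 1.30 (SE 0.124, limma adjusted p = 0.000753), a 2.47-fold drop, and it stayed called whichever 1 of the 6 arrays was left out (-1.43 to -1.17). With F191G it fell by 1.01 (SE 0.127, limma adjusted p = 0.0119) and with AQA by 0.85 (SE 0.124, limma adjusted p = 0.0147). The F191G call was lost without F191G replicate A (adjusted p = 0.0885), F191G replicate C (0.0763) or VEC replicate C (0.189), with values from -1.02 to -0.94. The AQA call was lost without AQA replicate A (adjusted p = 0.0905), AQA replicate C (0.129) or VEC replicate C (0.124). The DQD difference of -0.53 (SE 0.127, adjusted p = 0.0604) missed the threshold in the fit of all arrays and passed it when WT replicate A was left out of the spread (-0.52, adjusted p = 0.0337). With the replicate letter as a block beside batch, the F191G call was also lost (-1.03, adjusted p = 0.104). Within batch A the differences of WT, F191G, AQA and DQD from VEC were -1.36, -0.96, -0.77 and -0.25, and within batch B -1.19, -1.11, -1.01 and -0.74.

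Between the Twist1 forms, Cxcl5 was higher with DQD than with WT by 0.77 (SE 0.127, limma adjusted p = 0.00774), with all DQD arrays above all WT arrays. Without DQD replicate A the difference was 0.60 (adjusted p = 0.0709). AQA read 0.45 above WT (SE 0.124, adjusted p = 0.0629) and F191G 0.29 above WT (SE 0.127, adjusted p = 0.159). F191G read 0.48 below DQD (log2 difference -0.48, SE 0.124, adjusted p = 0.488), again without overlap of the arrays. The WT and F191G arrays took part in the choice of the family, so the p-values of this paragraph are given as a description.

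Ppbp lies next to Cxcl5 on the chromosome and encodes the precursor of the platelet chemokine NAP-2. It read 8.12, 8.60 and 8.67 with VEC and 5.92, 7.46 and 7.47 with WT. It read 8.11, 7.53 and 7.93 with AQA, 8.92, 8.17 and 8.53 with DQD, and 8.47, 7.82 and 7.86 with F191G. The 3 WT arrays were the lowest of the 15, and WT replicate A was far below the other WT arrays. Means ran from DQD (8.54 ± 0.38) through VEC (8.46 ± 0.30), F191G (8.05 ± 0.36) and AQA (7.86 ± 0.30) to WT (6.95 ± 0.89), and among these neighbours only AQA and WT did not overlap.

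Ppbp fell with WT by 1.51 (SE 0.362, limma adjusted p = 0.0201), a 2.86-fold drop. Without WT replicate A it fell by 0.97 (adjusted p = 0.0375), and the call was lost without VEC replicate B (-1.44, adjusted p = 0.0541) or VEC replicate C (-1.38, adjusted p = 0.108). It was higher with DQD than with WT by 1.59 (SE 0.370, limma adjusted p = 0.0155), which without DQD replicate A was 1.30 (adjusted p = 0.108). F191G read 1.10 above WT (SE 0.370, adjusted p = 0.0775) and AQA 0.91 above WT (SE 0.362, adjusted p = 0.141), with arrays apart in both pairs. AQA, F191G and DQD differed from VEC by -0.61, -0.42 and 0.08 (adjusted p = 0.438, 0.718 and 0.919). WT differed from VEC by -1.67 within batch A (2 arrays each) and by -1.20 within batch B (1 array each). The comparisons of Ppbp with WT reuse arrays on which the family was chosen and are a description.

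Ppbp and Pf4 are best known from platelets, whose own markers were therefore examined. Of 5 measured platelet and megakaryocyte markers, the integrin gene Itgb3 fell with WT by 0.69 (SE 0.202, limma adjusted p = 0.0411) and the other 4 did not pass. Of all genes 12.8% were called with WT. The Itgb3 call was lost when replicate A or C of either group was left out. Without WT replicate A Treml1 was called lower with DQD, where 3.19% of all genes were then called. The mean over these 5 markers was 6.80 to 6.94 on VEC arrays, 6.65 to 6.73 with WT, 6.69 to 6.73 with AQA, 6.67 to 6.82 with DQD and 6.76 to 6.85 with F191G. Both the WT arrays and the AQA arrays lay below all VEC arrays, while Ppbp was called against VEC with WT only. The part of such a shift in the Ppbp result was not tested. Itgb3 is also expressed by many adherent cells, and the platelet glycoprotein genes Itga2b and Gp9 averaged 6.41 and 5.57. In bulk RNA, fewer cells of a type and less RNA per cell cannot be told apart.

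Pf4, the chemokine known as platelet factor 4, averaged 4.46 ± 0.08 with VEC and 4.40 ± 0.01 with WT. The means of AQA, DQD and F191G were 4.31 ± 0.06, 4.27 ± 0.07 and 4.30 ± 0.09. Its values ran from 4.19 to 4.56 over the 15 arrays, and no difference from VEC passed the test (adjusted p from 0.118 to 0.653). Although Pf4 stands next to Ppbp on the chromosome, its WT difference was -0.06 (95% interval -0.20 to 0.09) where that of Ppbp was -1.51 (-2.30 to -0.73). The mean of Pf4 lies at percentile 14.8 of all genes, and whether a fall could be seen at such a level was not tested.

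Cxcl1, known as KC in the mouse, read 9.71, 9.56 and 9.22 with VEC and 10.90, 8.60 and 9.20 with WT. It read 7.97, 8.93 and 7.99 with AQA, 7.68, 8.18 and 7.88 with DQD, and 7.21, 8.38 and 8.17 with F191G. All 9 arrays of AQA, DQD and F191G lay below all 3 VEC arrays, while the WT arrays lay on both sides of VEC, far apart. The VEC arrays are again shared by these comparisons, and the share of all genes below VEC in these forms together is not given here. Cxcl2, known as MIP-2, read 8.49, 8.58 and 8.28 with VEC and 9.60, 6.87 and 7.48 with WT. It read 6.12, 7.65 and 6.64 with AQA, 6.06, 6.71 and 6.37 with DQD, and 5.79, 6.66 and 6.46 with F191G. The pattern was the same, with WT replicate A the highest array of the 15 for either gene and F191G replicate A the lowest.

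In the fit of all 15 arrays neither gene passed the test in any form against VEC. Cxcl2 differed by -2.15 with F191G (SE 0.570, limma adjusted p = 0.187), by -2.07 with DQD (SE 0.570, adjusted p = 0.0721), by -1.65 with AQA (SE 0.557, adjusted p = 0.175) and by -0.47 with WT (SE 0.557, adjusted p = 0.669). For Cxcl1 these differences were -1.58 (SE 0.494, adjusted p = 0.251), -1.58 (SE 0.494, adjusted p = 0.0932), -1.20 (SE 0.482, adjusted p = 0.254) and 0.07 (SE 0.482, adjusted p = 0.956). The WT arrays, at 9.60, 6.87 and 7.48 for Cxcl2, enter the spread shared by all groups. With WT replicate A left out, Cxcl2 fell with F191G (-2.24, adjusted p = 0.0142), DQD (-2.16, adjusted p = 0.0247) and AQA (-1.65, adjusted p = 0.0215). Cxcl1 then fell with F191G (-1.65, adjusted p = 0.0490) and DQD (-1.65, adjusted p = 0.0296). The WT differences from VEC were then -0.63 for Cxcl1 (adjusted p = 0.321) and -1.32 for Cxcl2 (adjusted p = 0.0510), and with arrays weighted by their quality Cxcl2 was called lower with WT (-1.31, adjusted p = 0.0410). Between batches the sizes differed: for F191G, Cxcl1 was -2.43 from VEC in batch A (1 against 2 arrays) and -0.95 in batch B (2 against 1), and Cxcl2 was -2.75 and -1.72.

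Set against WT, Cxcl1 was lower with DQD (log2 difference -1.65, SE 0.494, limma adjusted p = 0.0315). That call did not hold without WT replicate A (-1.02, adjusted p = 0.0624), DQD replicate A (-1.48, adjusted p = 0.144), DQD replicate B (-1.78, adjusted p = 0.0507) or DQD replicate C (-1.64, adjusted p = 0.0607). F191G differed from WT by -1.65 for Cxcl1 (adjusted p = 0.0575) and by -1.68 for Cxcl2 (adjusted p = 0.0784), and DQD from WT by -1.60 for Cxcl2 (adjusted p = 0.0556). Without WT replicate B, the WT array with the lowest values, all 3 passed (-2.11, -2.21 and -2.13, with adjusted p = 0.0180, 0.0228 and 0.0136). Without WT replicate A, the highest, they were -1.02, -0.92 and -0.84 (adjusted p = 0.120, 0.171 and 0.125). Among AQA, DQD and F191G the differences of both genes ranged from -0.50 to 0.00 and none passed the test, with wide intervals: F191G and DQD differed by 0.00 for Cxcl1 with a 95% interval from -1.04 to 1.05.

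**Figure D2:**
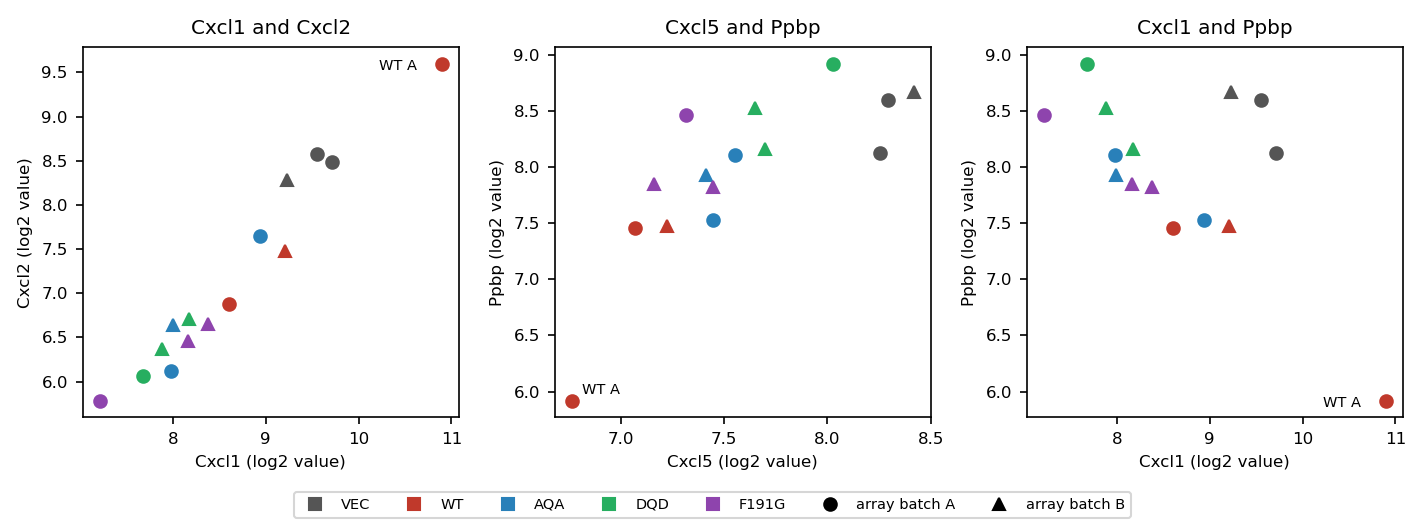
Log2 values of Cxcl1 against Cxcl2, Cxcl5 against Ppbp and Cxcl1 against Ppbp, with a point for each of the 15 arrays, coloured by group and shaped by array batch. Cxcl1 and Cxcl2 lie along a line (r = 0.976), while in the panel of Cxcl1 and Ppbp WT replicate A is far from all other arrays at 10.90 and 5.92.

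Cxcl1 and Cxcl2 followed each other from array to array. Pearson's r was 0.976 over the 15 arrays, 0.965 without WT replicate A and 0.969 for the deviations from group means, given as a description because the points share groups. Seen from Cxcl1, Cxcl2 ranked second among all other genes, behind Nfkbiz (r = 0.981), which encodes the nuclear NF-kB cofactor IkB-zeta, and ahead of Nfkbia (r = 0.974), which encodes the NF-kB inhibitor IkB-alpha, and the homeobox gene Irx3 (r = 0.963). The genes outside the family nearest to Cxcl2 were Nfkbiz (r = 0.969), the phosphatase gene Lhpp (r = 0.956) and the matrix gene Postn (r = 0.951). The r of Cxcl5 with Cxcl1 was 0.0003 and with Cxcl2 0.141, which without WT replicate A were 0.463 and 0.598. Its r with Ppbp was 0.764 (rank 207 among all genes), and 0.720 without that array. Nearest to Cxcl5 were Ccdc124 (r = 0.942), the membrane repair gene Myof (r = 0.930) and the histone chaperone gene Hira (r = 0.930). Cxcl1 and Ppbp had an r of -0.62, which was -0.22 without WT replicate A, and for deviations from group means over the 15 arrays it was -0.935.

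Cxcl3, whose window holds the same GGAATTTCC as those of Cxcl1 and Cxcl2, read 4.40, 4.47 and 4.62 with VEC and 4.47, 4.49 and 4.53 with WT. The means of AQA, DQD and F191G were 4.39 ± 0.08, 4.31 ± 0.07 and 4.39 ± 0.02. DQD lay below VEC on all arrays (difference -0.19, SE 0.071, adjusted p = 0.141), and no difference of Cxcl3 passed the test in any of the 10 pairs of groups. The 15 arrays spanned 0.39 for Cxcl3 against 3.69 for Cxcl1 and 3.81 for Cxcl2. The mean of Cxcl3 lies at percentile 15.7 of all genes, and how far its probes tell these related transcripts apart was not tested.

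Cxcl10, the interferon-inducible ligand of Cxcr3, read 6.67, 5.64 and 5.73 with VEC and 6.39, 6.75 and 6.51 with WT. It read 6.14, 5.37 and 5.47 with AQA, 5.87, 6.51 and 6.31 with DQD, and 5.85, 6.11 and 6.07 with F191G. WT had the highest mean (6.55 ± 0.19), followed by DQD (6.23 ± 0.33), VEC (6.01 ± 0.57), F191G (6.01 ± 0.14) and AQA (5.66 ± 0.42), and each neighbour in that order overlapped the next. Cxcl10 read 0.54 above VEC with WT (SE 0.267, limma adjusted p = 0.217). VEC replicate A, at 6.67, was the highest of the VEC arrays by far, and without it the WT difference was 0.88 and passed (adjusted p = 0.0374). Cxcl10 read 0.89 lower with AQA than with WT (log2 difference -0.89, SE 0.267, adjusted p = 0.0730), with no overlap. The genes nearest to it were Gm5129 (r = 0.873) and the interferon-stimulated genes Rsad2 (r = 0.822) and Ly6e (r = 0.822).

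Cxcl12, the homing chemokine also called SDF-1, read 5.47, 5.50 and 5.60 with VEC and 5.29, 5.21 and 5.22 with DQD. The DQD arrays lay below all VEC arrays, with a difference of -0.29 (SE 0.063, limma adjusted p = 0.0508), the member nearest to the threshold in that comparison. Cxcl12 was lower with DQD than with WT by 0.19 (log2 difference -0.19, SE 0.063, limma adjusted p = 0.0420). That call was lost when any 1 of the 6 arrays was left out (-0.23 to -0.15, adjusted p from 0.0564 to 0.178), with the replicate letter as a block (-0.19, adjusted p = 0.106) and when arrays were centred on their medians (-0.08, adjusted p = 0.395), which moved all DQD values up by 0.11 against WT. AQA and F191G read 0.19 and 0.18 below VEC (-0.19 and -0.18, adjusted p = 0.165 and 0.306). Cxcl16, which the proteases Adam10 and Adam17 shed from the cell surface, ran from 4.63 to 4.84 over all arrays, and its differences from VEC lay between -0.10 and -0.03 (adjusted p from 0.471 to 0.799). The means of Cxcl12 and Cxcl16 lie at percentiles 31.9 and 20.2 of all genes.

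**Figure D3:**
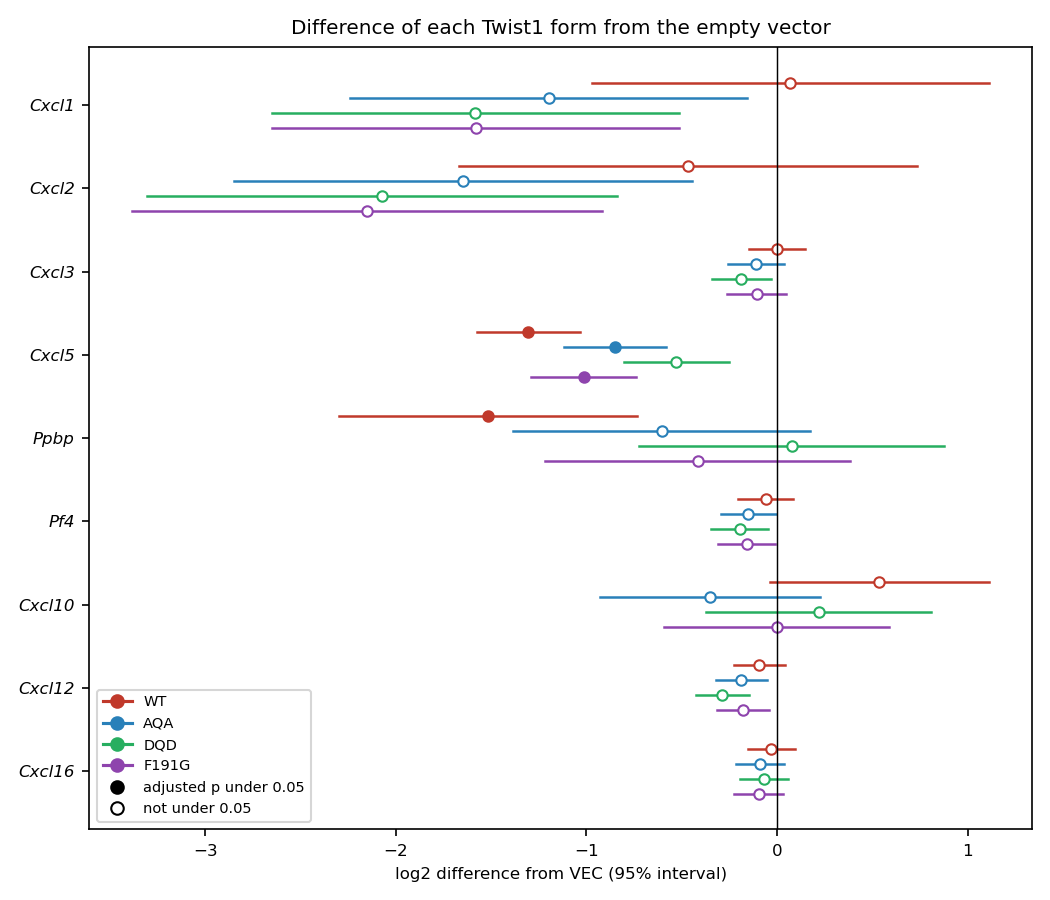
Difference of each Twist1 form from VEC on the log2 scale for the 9 genes, from the limma fit of all 15 arrays, with 95% intervals; filled points have an adjusted p under 0.05. Filled points are Cxcl5 with WT, AQA and F191G and Ppbp with WT, and the points of Cxcl1 and Cxcl2 with AQA, DQD and F191G lie between -1.20 and -2.15 with wide intervals.

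Counted together, 2 of the 9 genes were called lower with WT than with VEC and 0 higher, where 12.8% of all genes were called. With AQA and with F191G 1 was called lower, Cxcl5 in either case, against 0.881% and 0.0985% of all genes, and with DQD 0 of 9 by limma (6 at an unadjusted p under 0.05), against 0.814%. At an unadjusted p under 0.05 for DQD against VEC stood 4628 of all 19297 genes. DQD against WT called 4 of 9, with Cxcl5 and Ppbp higher and Cxcl1 and Cxcl12 lower, where 24.5% of all genes were called. For F191G against WT and AQA against WT limma called 0 of 9 (4 and 4 at an unadjusted p under 0.05), with 7.13% and 0.726% of all genes called. At that unadjusted p stood 5337 and 4822 of all genes. Limma also called 0 of 9 for DQD against AQA, F191G against AQA and F191G against DQD (1, 0 and 1 at an unadjusted p under 0.05), with 0.0259%, 0.0104% and 0.00518% of all genes called. Genes at that unadjusted p numbered 2811, 2143 and 1746. Since VEC and WT each enter several of these comparisons, the counts are not independent of one another. The family was chosen on Cxcl5 and Ppbp with WT and on Cxcl5 and Cxcl2 with F191G. The counts against VEC and against WT are therefore a description and no evidence of a raised share of called members.

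Below VEC on all 3 arrays were 2 members with WT, 7 with AQA, 6 with DQD and 6 with F191G, while 16.4%, 16.2%, 22.1% and 13.3% of all genes lay so. The median difference of the 9 genes from VEC was -0.06 with WT, -0.35 with AQA, -0.20 with DQD and -0.18 with F191G, and over all genes it was -0.01, -0.04, -0.05 and -0.03. With WT replicate A left out, the members called lower were 2 with AQA, 4 with DQD and 3 with F191G, while 2.24%, 3.19% and 0.218% of all genes were called. Cxcl5 and Cxcl2, on which the choice of the family rested in part, are among those called. The counts of this paragraph are therefore a description as well.

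**Figure D4:**
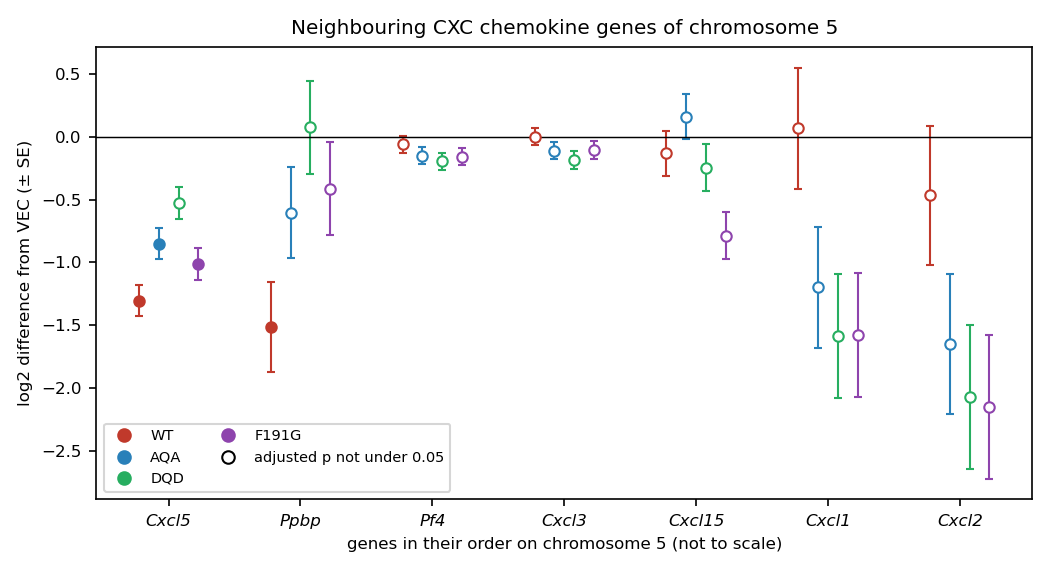
Log2 difference from VEC (± SE) of the 7 neighbouring CXC chemokine genes in their order on chromosome 5, for each Twist1 form; filled points have an adjusted p under 0.05. WT is lowest at Cxcl5 and Ppbp, and AQA, DQD and F191G are lowest at Cxcl1 and Cxcl2, with Pf4 and Cxcl3 close to 0 in between.

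Within the stretch from Cxcl5 to Cxcl2 the differences from VEC did not run together. At the Cxcl5 and Ppbp end WT was lowest, with -1.30 and -1.51, while at the Cxcl1 and Cxcl2 end its differences were 0.07 and -0.47. The latter rest on WT replicate A: without it they were -0.63 and -1.32, against -1.17 at Cxcl5 and -0.97 at Ppbp. DQD showed 0.08 at Ppbp and -2.07 at Cxcl2. The gene between Cxcl3 and Cxcl1, the neutrophil chemokine gene Cxcl15, averaged 8.99 in VEC and 8.20 in F191G, where all F191G arrays (8.06 to 8.29) lay below all VEC arrays (8.58 to 9.33) without passing the test (-0.79, SE 0.186, adjusted p = 0.146).

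The other genes of chemokine signalling came from lists written with the earlier results known. Called against VEC were 12.8% of all genes with WT, 0.881% with AQA, 0.814% with DQD and 0.0985% with F191G. At an unadjusted p under 0.05 stood 5329, 3030, 4628 and 2263 of all 19297 genes in the same order. The counts of all lists and markers below that come from the fit of all arrays stand beside these shares. Without WT replicate A, 4.37%, 2.24%, 3.19% and 0.218% of all genes were called against VEC, in the same order. For fits without another array no share of all genes is given, and counts from such fits only describe how the calls move. Calls against WT are given for some lists only. Of 6 further CXC ligands, limma called 0 in any form against VEC (2, 1, 2 and 2 at an unadjusted p under 0.05 for WT, AQA, DQD and F191G). Cxcl17, a mucosal chemokine, read 1.19 above VEC with WT (SE 0.371, adjusted p = 0.0522), with WT arrays from 7.05 to 8.88, and without WT replicate B it was called. Against WT, Cxcl17 was called lower with DQD (log2 difference -1.46, SE 0.380, limma adjusted p = 0.0209), where 24.5% of all genes were called. That call was lost without DQD replicate A. Cxcl9, like Cxcl10 a ligand of Cxcr3, differed by -0.25 with WT (SE 0.079, adjusted p = 0.0504). Of 8 receptors and decoy receptors limma called 0 (1, 0, 2 and 0 at an unadjusted p under 0.05). The receptor of the neutrophil chemokines, Cxcr2, ran from 2.71 to 3.20 over all arrays, and the Cxcl12 receptor Cxcr4 from 5.01 to 5.33. The Cxcl12 scavenger Ackr3 averaged 7.05 and differed by -0.24 with WT (adjusted p = 0.155). Of 7 chemokine-processing proteases limma called 0 against VEC (0, 0, 3 and 0 at an unadjusted p under 0.05), Dpp4, which clips Cxcl10 and Cxcl12, reading 0.27 above VEC with DQD (adjusted p = 0.136). Against WT, Adam17 was called higher (0.30, SE 0.097) and Ctsg lower (-0.26, SE 0.068) with DQD (limma adjusted p = 0.0430 and 0.0214). Both calls were lost without WT replicate A or DQD replicate A, and that of Adam17 also without DQD replicate C.

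Of 18 CC, XC and CX3C chemokines, Ccl5, a chemoattractant of T cells and monocytes, was the 1 gene called against VEC, with WT, where 12.8% of all genes were called. It rose with WT by 1.57 (SE 0.339, limma adjusted p = 0.0143), from 5.74 ± 0.42 to 7.31 ± 0.61, and the call was lost without VEC replicate C. With DQD it read 1.48 above VEC (SE 0.347, adjusted p = 0.0577), which without WT replicate A was 1.51 and passed (adjusted p = 0.0296), with F191G 1.08 (SE 0.347, adjusted p = 0.273) and with AQA 0.28 (SE 0.339, adjusted p = 0.719).

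Of 14 measured NF-kB subunits, inhibitors and feedback genes, 2 rose with WT, where 12.8% of all genes were called. These were Nfkb2 by 0.49 (SE 0.129, limma adjusted p = 0.0284) and the kinase scaffold gene Ikbkg by 0.33 (SE 0.097, limma adjusted p = 0.0428). The count was 0 by limma without WT replicate A, VEC replicate B or VEC replicate C, 1 without VEC replicate A and 5 without WT replicate B. Against VEC limma called 0 with AQA, DQD and F191G (4, 6 and 4 at an unadjusted p under 0.05). The genes nearest to Cxcl1, Nfkbia and Nfkbiz, are in this list. Nfkbia averaged 11.12 ± 0.42 with VEC and 11.12 ± 0.82 with WT, against 10.14 ± 0.43, 9.51 ± 0.31 and 9.80 ± 0.38 with AQA, DQD and F191G. Its difference from VEC was -1.61 with DQD (SE 0.375, adjusted p = 0.0564), -1.31 with F191G (adjusted p = 0.219), -0.97 with AQA (adjusted p = 0.218) and 0.001 with WT. Nfkbiz differed by -1.26, -1.21, -1.14 and -0.10 (adjusted p = 0.0997, 0.290, 0.189 and 0.915). Without WT replicate A, Nfkbiz fell with AQA (-1.14, adjusted p = 0.0422), and Nfkbia, Nfkbiz and the cofactor gene Bcl3 fell with DQD (-1.66, -1.32 and -0.55, adjusted p = 0.0247, 0.0338 and 0.0452). In that fit 2.24% of all genes were called with AQA and 3.19% with DQD.

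Against WT, 5 of the 14 NF-kB genes were called lower with DQD and 3 with F191G, where 24.5% and 7.13% of all genes were called, and 0 with AQA by limma. With DQD these were Nfkb2 (-0.77, SE 0.132), Nfkbia (-1.61, SE 0.375), Nfkbie (-0.91, SE 0.200), Tnip1 (-0.84, SE 0.177) and Ikbkg (-0.31, SE 0.099), with limma adjusted p from 0.00876 to 0.0394. With F191G they were Nfkb2 (-0.53), Nfkbie (-0.79) and Tnip1 (-0.64), with limma adjusted p = 0.0381, 0.0397 and 0.0488. The DQD count was 4 when WT replicate A was left out, 8 without WT replicate B and 0 without DQD replicate A. The F191G count was 0 without WT replicate A or any F191G array and 7 without WT replicate B, and the AQA count was 8 without WT replicate B and 5 without AQA replicate B. The share of all genes called in each of these fits is not given here, so these counts are no result about the list. Of the 18 CC, XC and CX3C chemokines, Ccl2 (-0.27) and Cx3cl1 (-0.31) were called lower with DQD than with WT (limma adjusted p = 0.0442 and 0.0397), where 24.5% of all genes were called. The Cx3cl1 call was lost when any 1 of the DQD or WT arrays was left out. The Ccl2 call was lost in all of these fits except that without DQD replicate C.

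Of 19 measured inflammatory cytokines and receptors, 2 were called with WT, where 12.8% of all genes were called. The endotoxin receptor gene Tlr4 rose by 0.39 (SE 0.111, limma adjusted p = 0.0364) and the alarmin gene Il33 fell by 1.17 (SE 0.307, limma adjusted p = 0.0283). Both calls were lost when WT replicate A or either of the VEC replicates A and C was left out, and Tlr4 also not without VEC replicate B or WT replicate B. Limma called 0 with AQA, DQD and F191G (3, 4 and 3 at an unadjusted p under 0.05), although Tlr4 was called higher with AQA without WT replicate A. Of 8 factors of cytokine mRNA decay, Zfp36l1, a relative of tristetraprolin, rose with WT by 1.10 (SE 0.229, limma adjusted p = 0.0126), a call lost without VEC replicate C, and limma called 0 in the other forms (0, 0 and 1 at an unadjusted p under 0.05 for AQA, DQD and F191G). The share of all genes called with WT was again 12.8%.

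Of 14 measured interferon signalling and interferon-stimulated genes, the setting of Cxcl10, 10 rose with WT, 2 with AQA, 3 with DQD and 1 with F191G, and 0 fell. Of all genes 12.8%, 0.881%, 0.814% and 0.0985% were called in these comparisons. The median difference of the 14 genes from VEC was 0.58 with WT, 0.20 with AQA, 0.14 with DQD and 0.26 with F191G. With WT the interferon factor genes Irf7, Irf9 and Stat2 rose by 2.18 (SE 0.585), 1.12 (SE 0.214) and 0.997 (SE 0.191), with limma adjusted p = 0.0307, 0.00989 and 0.00992. Leaving out WT replicate A gave a WT count of 7, where 4.37% of all genes were then called, and leaving out VEC replicate C a count of 1. The AQA count was 0 without AQA replicate A, AQA replicate C or either of the VEC replicates A and C. The DQD count was 0 when VEC replicate B, VEC replicate C or any DQD array was left out, and the F191G count was 0 when any F191G array or either of the VEC replicates A and C was left out. Irf1, which binds interferon-response motifs, differed by -1.34 with DQD (SE 0.458, adjusted p = 0.114), -1.17 with F191G (adjusted p = 0.350) and -0.98 with AQA (adjusted p = 0.312), and by 0.49 with WT (adjusted p = 0.546). Without WT replicate A Irf1 was the 1 gene of the list to fall, with DQD, where 5 rose and 3.19% of all genes were called.

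Among markers of cells that make or answer CXC chemokines, the means of 7 neutrophil markers ran from 4.64 to 4.89 over the 15 arrays, and limma called 0 of them (0, 0, 1 and 0 at an unadjusted p under 0.05 for WT, AQA, DQD and F191G). Of 8 macrophage and leukocyte markers, with means from 4.97 to 5.16, Cd68 rose with WT by 0.61 (SE 0.159, limma adjusted p = 0.0269), where 12.8% of all genes were called. Cd68 was not called when WT replicate A or either of the VEC replicates A and C was left out. Cd68 averaged 6.66 over the 15 arrays and the leukocyte marker Ptprc 4.56. Endothelial and fibroblast markers, 5 and 6 genes, had 0 called by limma in any form (0 and up to 4 at an unadjusted p under 0.05), and without WT replicate A Pdgfra was called higher with AQA. Endothelial marker means ran from 5.11 to 5.34 and fibroblast marker means from 5.64 to 5.93, and of the latter list Pdgfra (7.46), Col1a1 (6.95) and Col1a2 (6.70) averaged above the array medians while Dcn and Lum averaged 4.92 and 3.10. Their part in the chemokine results was not tested.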

How the data were processed

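Total RNA was labelled with biotin and hybridised to single-colour Affymetrix mouse arrays, per the labels' protocols. Values as deposited are on the log2 scale for 23811 probe sets, computed by the authors with RMA and examined with limma, per the submitters' processing notes, which give no versions. According to the series' design text, arrays were also adjusted for the level of Twist1, in a form it does not state. A batch term fitted beside group was at most 5e-09 for all probe sets, so no batch difference common to the groups is left in them, although single groups still differ between batches. No source used here records how this came about. Values within a batch are therefore not independent of the other batch.

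Probe sets with 1 symbol numbered 20852 (1440 had several, 1519 none) and gave 19297 genes. The members and lists were chosen with earlier results of these data known. Group and batch were fixed terms in limma 3.58.1 (R 4.3.3) over all 15 arrays, with 9 residual and 3.93 prior degrees of freedom. Adjusted p-values are Benjamini-Hochberg over 19297 genes, called under 0.05. Keeping the batch term leaves its degree of freedom out of the spread. The model was tested on simulated data. No filter was applied and no detection calls were used. Array number limits the precision. Named outside the members were, per list, the called genes and otherwise up to 3 with the smallest p, and the 3 genes with the highest r to Cxcl1, Cxcl2, Cxcl5 and Cxcl10. Other names, such as Cxcr2, Cxcr4 and Irf1, were chosen after their values were seen.

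The replicate letters are not said to mark shared cultures. Same-letter arrays of F191G and DQD deviated together from their group means (every pair over 0.1, from the values), which with the same split over batches is a hint from the data. With the letter as a block, 0 members were called there as without it. Alternatives were other model terms, normalizations, filters and arrays, as listed in the closing section. Promoters are RefSeq, GRCm38.p6, and the motifs were chosen with their matches known. Figures were drawn with matplotlib 3.10.9.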

Additional observations from a re-analysis of the deposited data

How the results depend on the processing

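Of 1724 values of single members under other settings, 1629 kept their direction and side of the threshold or stayed below it, 46 lost and 45 gained a call. Only a member called in the fit of all arrays could lose a call. The 46 losses therefore come from those few calls and are not to be read against 1724. A sign change of a value smaller than its SE was not counted. The other 4 turned sign: Ppbp with F191G against VEC within batch A (0.11), Cxcl16 with DQD against VEC after quantile normalization (0.040) or median centring (0.013), and Cxcl16 with AQA against WT after quantile normalization (0.0015). None of these 4 was called. Each member has 1 probe set, so a second probe set could not be tried. Cxcl3, Pf4, Cxcl12 and Cxcl16 are dim, and a filter on dim genes removes them.

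Counts of called members follow, by limma. With WT replicate A left out of the spread there were 2 for AQA, 4 for DQD and 3 for F191G against VEC, while 2.24%, 3.19% and 0.218% of all genes were called. For the other settings the share of all genes called is not given here. Their counts describe how the calls move and are no result about the members. Array weights gave 3 for WT (with Cxcl2), 3 for AQA and 5 for DQD against VEC, 2 for AQA and 6 for DQD against WT and 1 for DQD against AQA. Without a batch term there were 3 for DQD against VEC, and 1 for AQA, 2 for F191G and 6 for DQD against WT. With only the groups compared there were 1 for WT, 2 for DQD and 2 for F191G against VEC and 0 for DQD against WT. With the Twist1 value as a covariate there were 1 for WT and 0 for AQA and F191G against VEC. Within batch A there were 0 for WT, AQA and F191G against VEC and DQD against WT. Within batch B there were 0 for AQA and 1 for DQD against VEC and 1 for DQD against WT. All probe sets gave 1 for DQD against VEC, and leaving out dim genes 1 for F191G against WT. Leaving out 1 array gave 1 to 3 for WT, 0 to 1 for AQA and 0 to 1 for F191G against VEC, and 0 to 3 for F191G, 0 to 3 for AQA and 0 to 4 for DQD against WT. The causes of these changes were not tested. The lists' counts without WT replicate A, or without each array in turn, were added after the data were seen.

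The replicate letter as a block beside batch gave 0 for F191G against VEC in place of 1 and 3 for DQD against WT in place of 4, and changed no other count. In place of batch it gave 3 for DQD against WT. Same-letter correlations of deviations ran from -0.85 to 0.22, with 6 of 30 pairs over 0.1. Only for F191G and DQD were the pairs of all letters over 0.1. All arrays lettered A lie in batch A and all lettered C in batch B. With 3 arrays per group these correlations cannot show what else same-letter arrays share.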
